A study of Rattus norvegicus with 8 samples.

Results

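The receptors for the neurotrophins and for the ligands of the GDNF (glial cell line-derived neurotrophic factor) family were followed in nuclei of the nodose ganglia, the ganglia that hold the sensory neurons of the vagus nerve. They were chosen by gene symbol: Ntrk2, Ntrk3, Ngfr, Ret, Gfra1, Gfra2 and Gfra3. Of these 7 genes, 6 had 1 row each among the 30560 genes of the count matrix. Gfra1 had no row under that symbol and is not analysed here. The animals were untreated Long Evans rats aged 8 weeks, with no genetic modification or treatment named in the labels. Each of the 12 pools combined the ganglia of 1 side from 6 rats, and 3 pools were labelled for each of male left (ML), male right (MR), female left (FL) and female right (FR). The pool is the replicate here, and values from pooled animals do not show the spread between single rats. The numbers of rats in the labels imply that the left and right pools of a sex drew on the same animals.

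Neurotrophins signal through Trk receptor tyrosine kinases and through p75, a receptor of the tumour necrosis factor receptor family. Ntrk2 encodes TrkB, the receptor for BDNF and NT-4, and Ntrk3 encodes TrkC, the receptor for NT-3. Ngfr encodes p75, which binds all neurotrophins. GDNF family ligands bind a co-receptor held in the membrane by a lipid anchor, and ligand and co-receptor then engage the tyrosine kinase encoded by Ret. Gfra2 encodes the preferred co-receptor of neurturin, and Gfra3 that of artemin. Nodose neurons, which derive from the epibranchial placodes, are known for their dependence on BDNF and TrkB during development. Neurons of the neighbouring jugular ganglion derive from the neural crest.

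After filtering, 36738 nuclei with 139954192 transcripts (unique molecular identifiers, UMIs) remained, with a median of 2680 UMIs per nucleus and from 7139364 to 19456287 UMIs per pool. Neurons numbered 26084 nuclei. They comprised 6117 nodose-like, 2228 jugular-like and 17739 neurons that matched neither marker list, and they fell into 26 subclusters. Y-linked transcripts of pools ML1 and FL1 went against their labelled sex, so pools are called male-labelled and female-labelled, and each test was repeated without these 2 pools. Of the nuclei, 3808 (10.4%) shared a combination of well barcodes with a nucleus of another sublibrary, and barcodes were kept apart by sublibrary. Neuronal transcripts were also found in non-neuronal nuclei. The neuron marker genes of satellite glia stood at a median of 0.821 times their level in neurons, and those of myelinating Schwann cells at 0.330 times. Levels are UMIs of a gene in the summed nuclei, scaled to a fixed total (CPM). They rest on counts that were not divided by gene length, so they are compared between nuclei and not between genes. The classes and subclusters were drawn from the same counts, so differences between them are described and not tested.

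Ntrk2 was high in nodose-like neurons and low in jugular-like neurons. Over the 12 pools its level in all neurons ranged from 873 to 1162 CPM, with a median of 1089 and a mean of 1073 ± 89.1 (SD). Nodose-like neurons held 1183 ± 83.2 CPM and jugular-like neurons 238 ± 76.0 (SD, n = 12 pools each). The lowest pool for nodose-like neurons (1077 CPM) was above the highest for jugular-like neurons (358 CPM). Of the 26 subclusters, 5 were nodose-like, and their Ntrk2 level had a median of 1171 CPM and a range of 338 to 1727. The 4 jugular-like subclusters had a median of 247 CPM and a range of 176 to 342. These ranges overlapped through 1 nodose-like subcluster, led by Ntrk3, Agtr1a and Hmcn1, at 338 CPM. The 17 unnamed subclusters spread from 162 to 1641 CPM, with a median of 852. The highest Ntrk2 level, 1737 ± 124 CPM (SD, n = 12 pools), was in the subcluster led by Xylt1, Sctr and Cckar, the gene of the receptor for cholecystokinin. The subcluster led by Nxph1, Rnf220 and Eya4 followed with 1661 ± 123, which did not differ from it beyond the spread between pools.

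**Figure D1:**
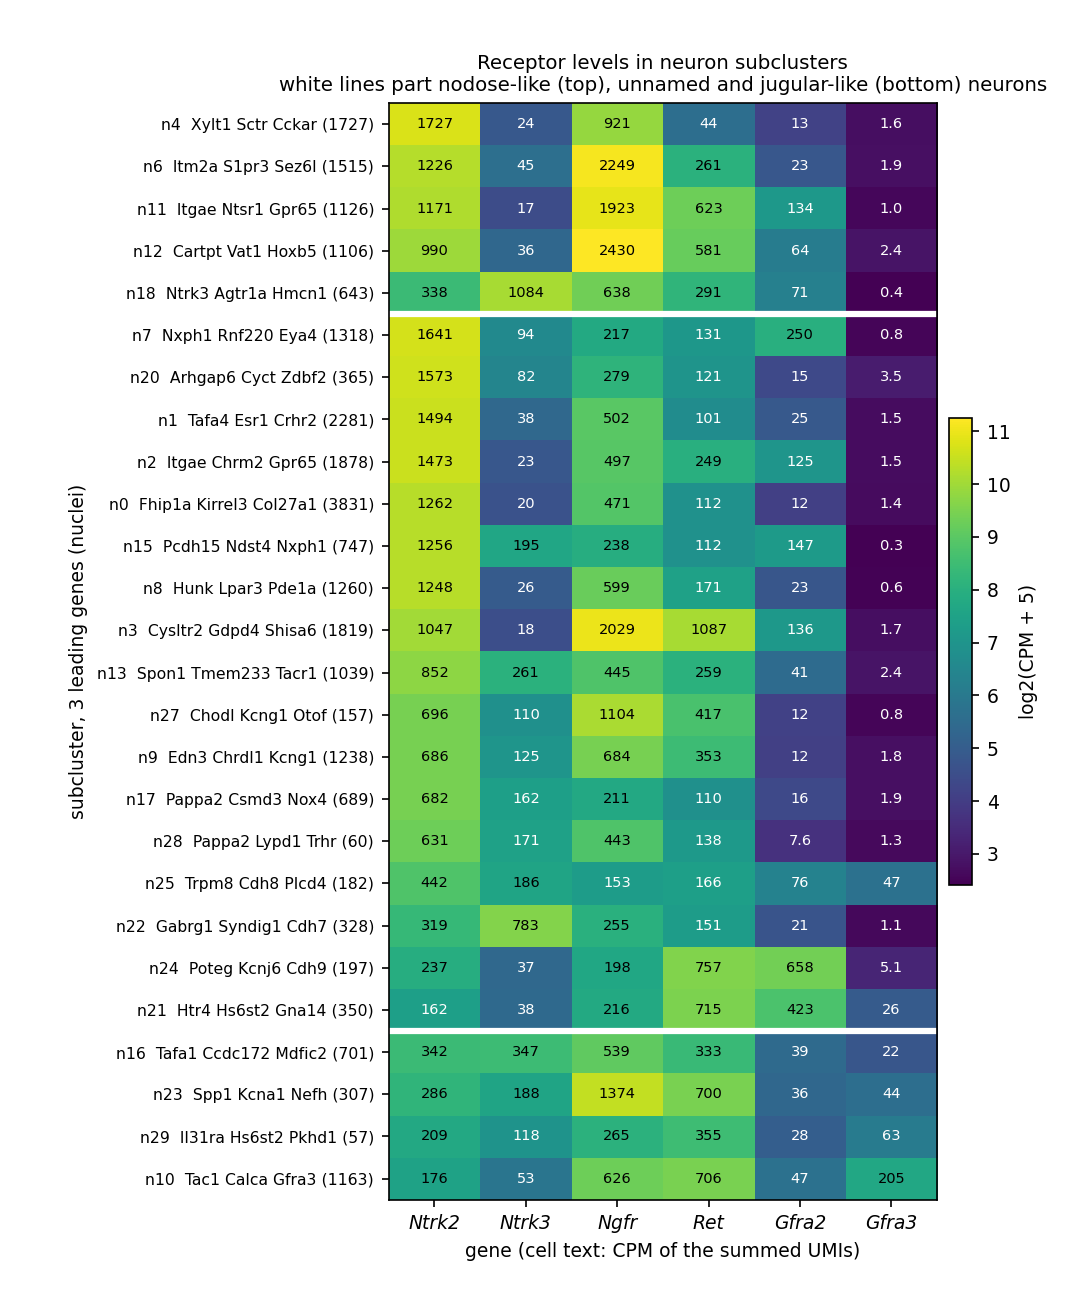
Level of each receptor gene (columns) in the 26 neuron subclusters (rows, with their 3 leading genes and number of nuclei), coloured by log2(CPM + 5) and printed as CPM of the summed UMIs. White lines part the nodose-like (top), unnamed and jugular-like (bottom) subclusters, each ordered by Ntrk2. Ntrk2 lies between 176 and 342 CPM in the jugular-like rows, and Gfra3 reaches its highest level in the Tac1 Calca row (205 CPM).

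Ntrk3 was held by few subclusters. Its level in all neurons ranged from 87.1 to 127 CPM over the 12 pools, with a mean of 107 ± 13.7 (SD). The subcluster named for it, with Agtr1a (angiotensin receptor) and Hmcn1, held 1090 ± 116 CPM (SD, n = 12 pools), and its lowest pool had 865. A subcluster led by Gabrg1, Syndig1 and Cdh7 held 817 ± 108 CPM over the 10 pools with at least 20 of its nuclei. Both were low in Ntrk2, at 338 and 319 CPM of their summed UMIs. The subcluster led by Tafa1, Ccdc172 and Mdfic2 followed with 334 ± 125 CPM (SD, n = 10 pools). The median was 36.1 CPM over the 5 nodose-like and 93.7 over the 17 unnamed subclusters. Per pool, jugular-like neurons held 172 ± 56.3 CPM, nodose-like neurons 118 ± 25.8 and unnamed neurons 92.7 ± 10.1 (SD, n = 12 pools), and the pools of these classes overlapped. Across the subclusters the log2 levels of Ntrk2 and Ntrk3 had a Pearson r of -0.41, a description over 26 points that share libraries.

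Ngfr was highest in 4 subclusters. The subcluster led by Cartpt, Vat1 and Hoxb5 held 2406 ± 205 CPM, that led by Itm2a, S1pr3 and Sez6l 2213 ± 230, that led by Cysltr2, Gdpd4 and Shisa6 2015 ± 280, and that led by Itgae, Ntsr1 and Gpr65 1916 ± 232 (SD, n = 12 pools each). Neighbours in this order did not differ beyond their spread. Median UMIs per nucleus in these subclusters were 3552 to 6443, against 2976 over all neurons. The 2 deepest subclusters had lower Ngfr levels, at 1104 CPM (Chodl, Kcng1 and Otof, median 7340 UMIs) and 443 CPM (Pappa2, Lypd1 and Trhr, median 10953 UMIs), and the shallower Spp1 subcluster (2384 UMIs) had 1374. Both of the deepest carried markers of satellite glia, fibroblasts and mural cells, and the Cartpt subcluster carried satellite glia markers. The part of depth in the Ngfr levels was not tested. Nodose-like neurons held 1822 ± 167 CPM and jugular-like neurons 752 ± 207 (SD, n = 12 pools). The lowest nodose-like pool, at 1597 CPM, was above the highest jugular-like pool, at 1199. The subclusters led by Htr4 (165 ± 66.2 CPM, SD, n = 5 pools) and by Trpm8 (198 ± 60.04, n = 3 pools) had the lowest means over pools and did not differ beyond their spread.

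Ret was high in subclusters of each neuron class. Its level in all neurons ranged from 302 to 451 CPM, with a mean of 375 ± 54.0 (SD, n = 12 pools). The highest subcluster was that of Cysltr2, Gdpd4 and Shisa6, an unnamed one, with 1084 ± 108 CPM (SD, n = 12 pools). The next 4 lay between 663 and 727 CPM, close to each other for their spread: the unnamed ones led by Htr4 and by Poteg, and the jugular-like ones led by Spp1 and by Tac1 and Calca. The Xylt1, Sctr and Cckar subcluster, highest in Ntrk2, had the lowest Ret level at 44.1 CPM. The log2 levels of Ret and Ntrk2 had a Pearson r of -0.54 over the 26 subclusters.

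Gfra3 and Gfra2 had their highest levels in different Ret-rich subclusters. Gfra3, at 11.9 ± 8.32 CPM in all neurons, was at 119 ± 39.5 in jugular-like and 1.60 ± 0.903 in nodose-like neurons (SD, n = 12 pools). The subcluster led by Tac1 and Calca, which encode the peptides substance P and CGRP, held 205 ± 53.6 CPM (SD, n = 11 pools). It supplied 960 of the 1274 Gfra3 UMIs of neurons, and Gfra3 was among its 3 leading genes. Among subclusters with pools of at least 20 nuclei, that led by Spp1, Kcna1 and Nefh was next at 47.5 ± 37.4 CPM (SD, n = 7 pools). A subcluster of 57 nuclei with Il31ra among its leading genes had 62.7 CPM from only 9 UMIs. Over the 5 nodose-like subclusters the Gfra3 level was 0.355 to 2.44 CPM. Gfra2 had 83.6 ± 13.7 CPM in unnamed neurons, 61.0 ± 16.0 in nodose-like and 36.3 ± 11.8 in jugular-like neurons (SD, n = 12 pools). It was highest in 2 small unnamed subclusters, that led by Poteg, Kcnj6 and Cdh9 (742 ± 162 CPM, SD, n = 4 pools) and that led by Htr4, Hs6st2 and Gna14 (422 ± 111, SD, n = 5 pools). Both carried the jugular markers Prdm12 and Piezo2, fewer than the 3 markers needed for the jugular-like name, and the Poteg one also markers of Schwann cells and muscle. In Gfra2 level the Nxph1, Rnf220 and Eya4 subcluster came next with 252 ± 54.6 CPM (SD, n = 12 pools), and there Ret was low, at 131 CPM. The Cysltr2 subcluster, highest in Ret, held 137 ± 14.3 CPM of Gfra2.

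The sequence upstream of Ret and Gfra3 is shown because, of all pairs, these 2 genes were found in the same nucleus most often for their single shares. It comes from RefSeq on the GRCr8 build, which is a later build than that of the counts, and covers the 250 bases before each annotated start, both on the minus strand: chr4:153040557-153040806 for Ret and chr18:26600226-26600475 for Gfra3. RefSeq promoters of 3 of the 7 genes were matched (Ret, Gfra1 and Gfra3). Capitals mark the GC box GGGCGG on either strand, written CCGCCC where it lies on the other strand, and the E-box CAGCTG, which reads the same on both strands.
Ret promoter: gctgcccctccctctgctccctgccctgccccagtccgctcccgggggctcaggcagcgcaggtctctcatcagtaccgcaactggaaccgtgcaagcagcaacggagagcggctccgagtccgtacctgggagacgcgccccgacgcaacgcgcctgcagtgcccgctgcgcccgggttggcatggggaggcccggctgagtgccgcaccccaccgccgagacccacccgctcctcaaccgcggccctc
Gfra3 promoter: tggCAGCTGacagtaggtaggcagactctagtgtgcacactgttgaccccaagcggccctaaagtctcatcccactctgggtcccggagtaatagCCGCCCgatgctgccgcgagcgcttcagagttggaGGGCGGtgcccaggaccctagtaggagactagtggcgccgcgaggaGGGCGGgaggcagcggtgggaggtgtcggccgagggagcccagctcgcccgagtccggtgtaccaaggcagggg
The Gfra3 window holds 3 GC boxes and 1 E-box of this form, and the Ret window holds neither motif. Of 33469 rat promoters of the same length, 30.5% hold the GC box and 11.97% the E-box. The Ret window is 72.8% G and C with 25 CpG dinucleotides, and the Gfra3 window 66% with 18, against medians of 51.2% and 5 over all promoters. No binding or methylation was measured here, and a match describes the letters alone.

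Co-detection was counted after each neuron was thinned to 1000 UMIs, which left out 990 shallower nuclei and kept 25094. In these, 59.8% of neurons had a UMI of Ntrk2, 41.8% of Ngfr, 20.7% of Ret, 7.69% of Ntrk3, 6.24% of Gfra2 and 1.05% of Gfra3. Without thinning the shares were 81.6%, 63.4%, 42.5%, 16.6%, 17.5% and 3.04%. Free RNA gives UMIs in nuclei that do not express a gene. In thinned skeletal muscle nuclei, which should lack most of these receptors, the shares were 51.2% for Ntrk2, 36.7% for Ngfr, 11.8% for Ret, 8.86% for Ntrk3, 4.70% for Gfra2 and 0.362% for Gfra3, at a median of 1752 UMIs before thinning against 2976 in neurons. Before thinning, 405 of the 617 muscle nuclei came from pool FR2, and the lowest pool held 2. Their clusters differed, with Ntrk2 at 549 CPM in 344 nuclei and 1115 in 273, so the muscle shares are a rough background. The Ntrk3 share of neurons was below that of muscle, and those of Ntrk2 and Ngfr were little above it, so single UMIs of these genes are not read as expression. In jugular-like neurons Gfra3 was detected in 10.1% (95% Clopper-Pearson interval 8.87 to 11.5) and in nodose-like neurons in 0.151% (0.0691 to 0.287), intervals that cover counting error only.

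Ret and Gfra3 were found in the same nucleus 2.12 times as often as the product of their shares, in 116 nuclei, and Gfra3 was in 2.23% of nuclei with Ret. The ratio was above 1 in 12 of 12 pools, from 1.61 to 2.57. Within the Tac1 and Calca subcluster alone it was 1.21 (91 nuclei with both of 1106). For Ret and Gfra2 the ratio was 1.48 (482 nuclei), from 1.17 to 1.62 over the pools. Within the Cysltr2 (1.05), Poteg (0.961) and Itgae Ntsr1 (0.964) subclusters it was close to 1, whereas in the Nxph1, Rnf220 and Eya4 subcluster it was 1.51, from 33 nuclei. Ngfr and Ret had a ratio of 1.35, above 1 in 12 of 12 pools. Within the Itm2a (1.00), Cartpt (1.02) and Itgae Ntsr1 (1.02) subclusters it was close to 1. Ngfr was in 85.6%, 89.5% and 82.5% of their nuclei, which leaves the ratio little room above 1. Higher ratios were found within the Cysltr2 (1.21), Spon1 (1.46), Hunk (1.31), Edn3 (1.26) and Pcdh15 (1.53) subclusters, among others. The ratio was below 1 only within the Poteg (0.844), Chodl (0.886) and Pappa2 Lypd1 (0.635, from 2 nuclei) subclusters. Ntrk2 and Ntrk3 were found together less often than the product of their shares, with a ratio of 0.684 in 790 nuclei and a pool range of 0.509 to 0.821. Within the 4 subclusters highest in Ntrk3 it was 0.892 (Ntrk3 Agtr1a), 0.904 (Gabrg1), 0.574 (Tafa1, from 17 nuclei) and 1.11 (Spon1). Ntrk2 and Gfra3 had the lowest ratio, 0.228, from 36 nuclei. Ratios over all neurons pool subclusters of different levels, and they are given without a test.

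**Figure D2:**
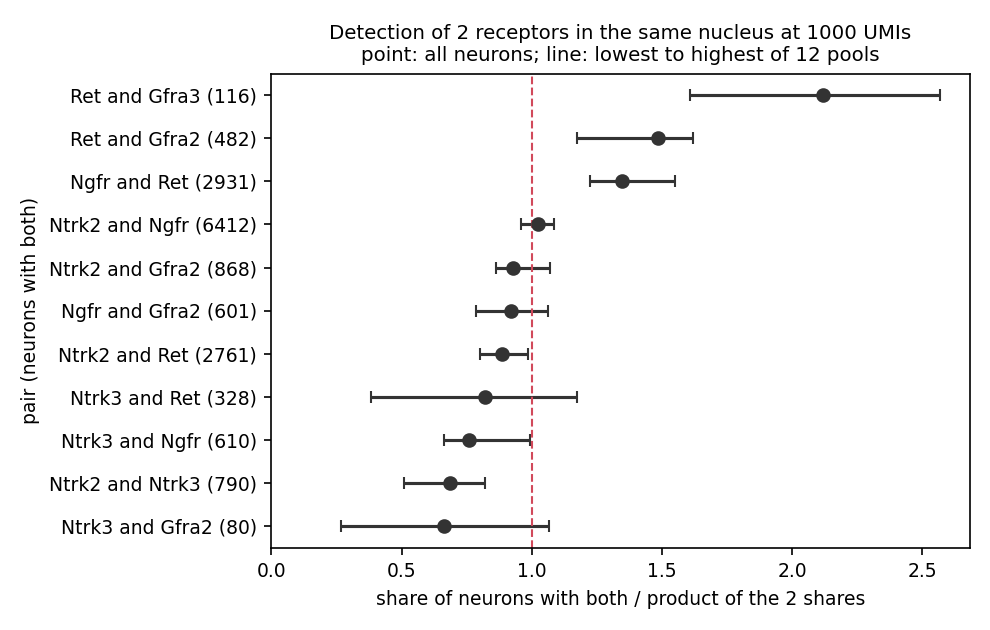
Share of neurons with UMIs of both genes of a pair, divided by the product of the single shares, at 1000 UMIs per nucleus, with the point for all neurons, the line from the lowest to the highest of 12 pools, and the number of neurons with both in brackets. The 4 pairs of Gfra3 with a gene other than Ret are not drawn. Ret with Gfra3, Ret with Gfra2 and Ngfr with Ret lie above 1 in every pool, and Ntrk2 with Ntrk3 lies below 1 in every pool.

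Outside neurons, Ntrk3 and Gfra2 stood well above the level that the neuron markers had in Schwann cells, and Gfra3, with few UMIs, stood above it too. In 2349 myelinating Schwann cells Ntrk3 had a level of 384 ± 54.7 CPM (SD, n = 12 pools), with its lowest pool at 325, against a highest neuron pool of 127. Gfra2 stood at 161 ± 27.5 CPM there, from 105 to 206, against 58.0 to 90.7 in neurons. Relative to neurons these were ratios of 3.42 for Ntrk3 and 2.19 for Gfra2, whereas the 8 neuron markers lay between 0.174 and 0.476. Gfra3, at 7.81 ± 7.42 CPM from 53 UMIs, had a ratio of 0.877. Ntrk2 (0.387), Ngfr (0.245) and Ret (0.226) lay within the range of the neuron markers. After thinning, Ntrk3 was found in 29.99% of Schwann cells (95% Clopper-Pearson interval 28.0 to 32.0) and in 7.69% of neurons. Both shares are at 1000 UMIs per nucleus, and the median of Schwann cells before thinning was 1531 UMIs.

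Mural cells, the 670 nuclei with markers of the cells that wrap small vessels, held 345 ± 118 CPM of Ntrk3 (SD, n = 12 pools). Its ratio to neurons was 3.07, against 0.147 to 0.344 for the neuron markers. The cluster they came from also carried 6 endothelial markers. Gfra2 (0.700) and Ntrk2 (0.351) also had ratios above that range, and Gfra3 was nearly absent, with 2 UMIs in all. In satellite glia, the glia that wrap the neuron bodies, all 6 genes lay within the range of the neuron markers, which was 0.393 to 1.39. Ntrk2 stood at 896 ± 48.5 CPM, Ngfr at 610 ± 91.2, Ret at 188 ± 20.2, Ntrk3 at 129 ± 16.9, Gfra2 at 43.3 ± 7.89 and Gfra3 at 5.11 ± 3.28 (SD, n = 12 pools). Expression by the glia and neuronal RNA cannot be told apart in this class as a whole. Its clusters differed in Ntrk3, against 108 CPM in the summed neurons. Relative to neurons, Ntrk3 was above the marker range in the clusters led by Ltbp2 (151 CPM), Zmat4 (190) and Acsbg1 (125), farthest in the Ltbp2 one. It was within that range in those led by Cntnap5a (115), Syt4 (79.4) and Th (140). The source of Ntrk3 in these clusters was not tested.

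**Figure D3:**
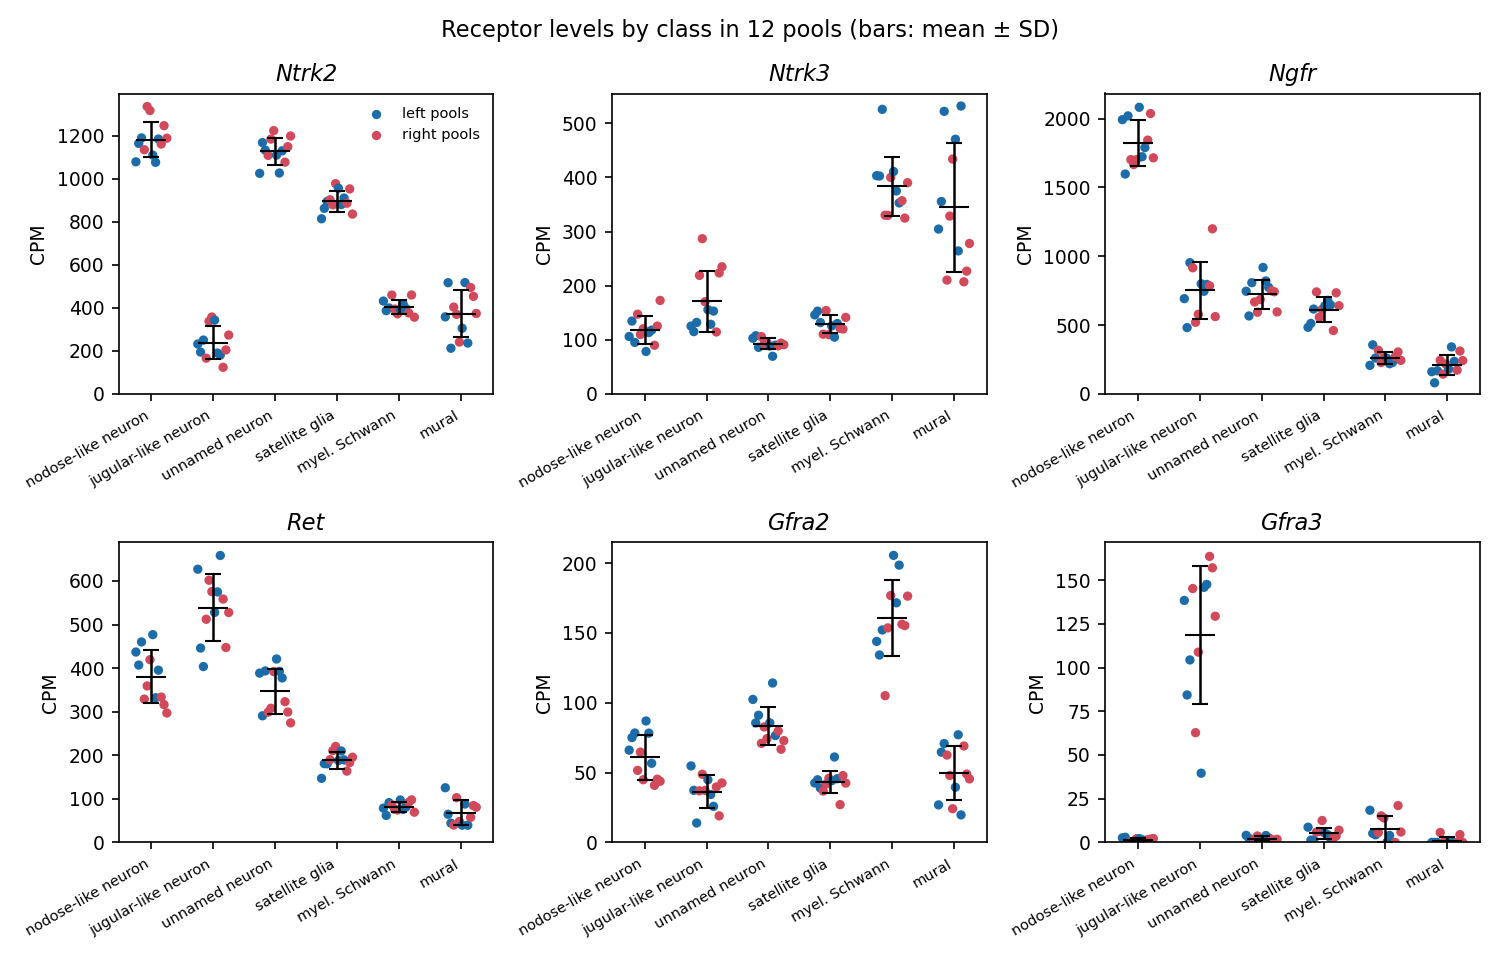
CPM of each receptor gene by class on linear axes, with each point 1 of the 12 pools (left pools blue, right pools red) and bars for the mean ± SD. Ntrk2 and Ngfr have their highest means in nodose-like neurons, Ret and Gfra3 in jugular-like neurons, and Ntrk3 and Gfra2 in myelinating Schwann cells, with mural cells close to Schwann cells for Ntrk3.

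**Figure D4:**
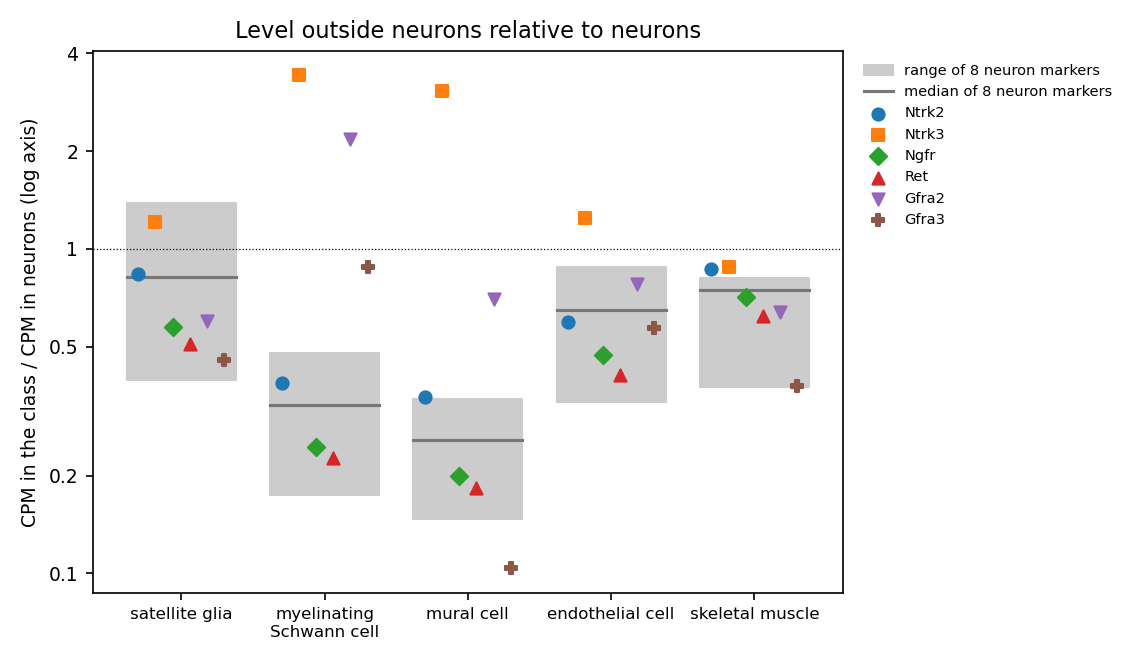
CPM of each receptor gene in 5 non-neuronal classes divided by its CPM in neurons, on a log axis, with a grey box for the range and a line for the median of the same ratio over 8 neuron markers. Ntrk3 (3.42) and Gfra2 (2.19) in Schwann cells and Ntrk3 (3.07) in mural cells lie farthest above the boxes, and all 6 genes lie within the box of satellite glia.

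The genes whose levels followed each receptor most closely were looked up among 8884 genes over the 26 subclusters. For Gfra3 they were Calca (Pearson r = 0.95), Sytl3 (0.89) and Prlr (0.88). For Ret they were Ptprf (0.88), Trarg1 (0.82) and Nsg2 (0.79), and for Gfra2 Ptprt (0.74), Sv2c (0.72) and Cemip2 (0.72). Ngfr was followed by Tmem245 (0.94), Lrrc58 (0.93) and Slc39a6 (0.92). Ntrk2 was followed by Diablo (0.85), RGD1309489 (0.84) and Srsf12 (0.84), and Ntrk3 by Cdh12 (0.82), Myh10 (0.80) and Dach1 (0.78). These are correlations of log2(CPM + 5), over points that share libraries and depth. Among the receptors themselves Ret had r = 0.48 with Gfra2 and 0.39 with Gfra3, and Ntrk2 had r = -0.72 with Gfra3.

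The study compared ganglia of the left and right side. Gfra2 was the only one of the 6 receptors that passed the test between sides in neurons, and it was lower on the right. Left pools held 65.3 CPM at the lowest, 84.5 at the median and 90.4 at the highest (81.4 ± 8.80, SD, n = 6), scaled to normalised library sizes. Right pools held 57.0, 62.0 and 74.1 (62.9 ± 5.81, SD, n = 6). The sides overlapped through FL3, the lowest left pool, and MR2, the highest right pool. In edgeR's quasi-likelihood test, adjusted by Benjamini and Hochberg's method over 14100 genes, the log2 ratio of right to left was -0.37 (SE 0.072, adjusted p = 0.0389). Of those genes 0.163% were called by side. The call was lost without ML1 and FL1 (log2 ratio -0.34, edgeR adjusted p = 0.299) and, when single pools were left out, without FL1, FL2, FR1, FR2, FR3, ML1, ML3, MR1 or MR3 (-0.32 to -0.42 over the 12 pools, edgeR adjusted p 0.00839 to 0.135). It was also lost with the receptors left out of the clustering (edgeR adjusted p = 0.06001), at resolution 2 (0.0610) and without the 5% of nuclei with the highest doublet scores (0.0539).

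In nodose-like neurons Gfra2 was lower on the right as well. Left pools ranged from 56.4 to 88.3 CPM (median 76.9, 74.1 ± 11.2, SD, n = 6) and right pools from 42.5 to 64.5 (median 45.2, 48.6 ± 8.37). The sides overlapped through 1 pool each, as MR2 (64.5) was above FL3 (56.4). The log2 ratio was -0.61 (SE 0.106, edgeR adjusted p = 0.00114), in a class where 2.12% of 12064 genes were called. It was -0.56 (edgeR adjusted p = 0.00176) without ML1 and FL1, and -0.24 (0.738) when the clusters were drawn at resolution 0.5. Within each of the 8 sublibraries the right-hand level was lower, by 0.26 to 0.97 on the log2 scale in nodose-like neurons and by 0.13 to 0.45 in neurons. The sublibraries split the same 12 pools and are no further replicates. Ngfr (lower on the right) and Ntrk2 (higher), neither of them called, also had 1 direction in 8 of 8.

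The makeup of the nodose-like neurons differed between the sides too. The Itgae Ntsr1 subcluster, with much Gfra2, took 22.9% ± 2.08 of left and 15.5% ± 3.98 of right nodose-like neurons, and the Xylt1 subcluster, with little, took 20.3% ± 4.101 and 34.2% ± 3.35 (SD, n = 6 pools each). With each subcluster given the same weight in every pool, Gfra2 in nodose-like neurons averaged 60.5 ± 8.07 CPM in left and 46.4 ± 6.51 in right pools, a log2 difference of -0.38 against -0.60 as measured. In all neurons the fixed values were 67.2 ± 6.33 and 57.2 ± 4.26, or -0.23, over 21 of the 26 subclusters. The measured -0.36 covers all 26, so the 2 differences rest on different nuclei as well as on a different makeup. The Poteg and Htr4 subclusters, highest in Gfra2, were among those left out, as a pool held fewer than 5 of their nuclei. Of 20 subclusters with enough nuclei on both sides, 14 had a lower and 6 a higher mean Gfra2 level on the right, with a median log2 ratio of -0.24 and a range of -0.73 to 0.38. The left level was 147 and the right 113 CPM in the Itgae Ntsr1 neurons, 77.0 and 48.5 in the Cartpt neurons, 155 and 116 in the Itgae Chrm2 neurons, and 34.2 and 19.7 in the Tafa4 Esr1 neurons. It was 250 and 254 CPM in the Nxph1, Rnf220 and Eya4 neurons and 72.6 and 68.1 in the Ntrk3 Agtr1a neurons. The right was higher in the Xylt1 (9.42 and 13.7), Tafa1 (34.5 and 44.3), Edn3 (10.7 and 13.4) and Spp1 (30.4 and 36.4) neurons. These values by subcluster are descriptions over 6 pools a side. Markers of satellite glia in neurons summed to 296 to 356 CPM on the left and 289 to 449 on the right, and the median UMIs per neuron averaged 3316 ± 579 in left and 2872 ± 544 in right pools. Their part in the result was not tested.

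**Figure D5:**
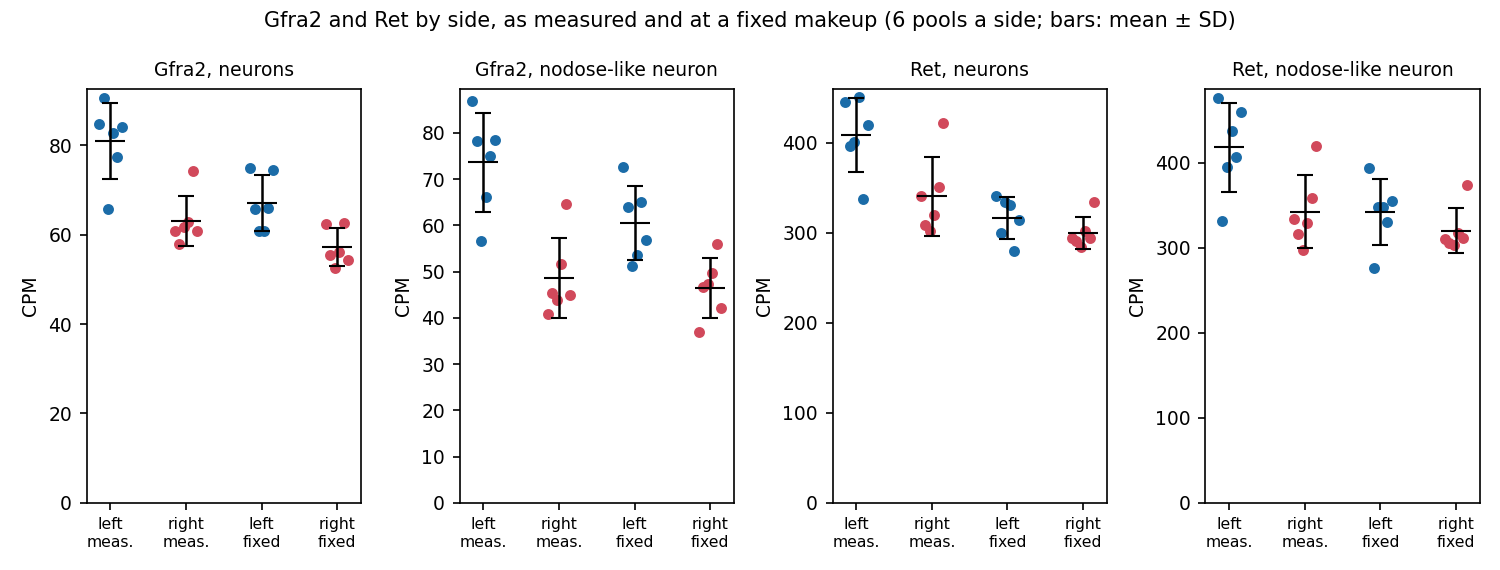
CPM of Gfra2 and Ret in left (blue) and right (red) pools of neurons and of nodose-like neurons, as measured and with each subcluster given the same weight in every pool, with each point 1 pool and bars for the mean ± SD of 6. For neurons the fixed values cover 21 of the 26 subclusters and the measured values all 26. Gfra2 means are lower on the right in both classes, as measured and at the fixed makeup, with overlapping pools, and the Ret difference in nodose-like neurons shrinks from -0.29 to -0.09 on the log2 scale at the fixed makeup.

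Ret came closest to Gfra2. Among nodose-like neurons, left pools averaged 421 ± 55.5 CPM of Ret and right pools 344 ± 47.0 (SD, n = 6 per side). The log2 ratio was -0.30 (SE 0.086, edgeR adjusted p = 0.0975). Ret was called there in 7 of 22 alternatives, among them DESeq2 (adjusted p = 0.0125), and edgeR without MR3 (adjusted p = 0.0129) or FL2 (0.00941). Without ML1 and FL1 it was not called (-0.23, edgeR adjusted p = 0.167). When single pools were left out, the edgeR adjusted p reached 0.237. With the makeup fixed, its difference was -0.09. In all neurons its log2 ratio was -0.28 (SE 0.092, from -0.46 to -0.095 within 2 SE, edgeR adjusted p = 0.534). Ntrk2 was 0.11 ± 0.059 higher on the right in neurons (edgeR adjusted p = 0.798) and Ntrk3 0.17 ± 0.070 (0.648), on the log2 scale. The log2 ratio of Ngfr was -0.13 (SE 0.116, edgeR adjusted p = 0.923). That of Gfra3 was -0.51 (SE 0.57, edgeR adjusted p = 0.942). Its left pools ran from 2.93 to 32.3 CPM, and jugular-like nuclei made up 2.44% to 20.01% of neurons over the left pools. Without ML1 the log2 ratio was 0.01. The median log2 ratio of the 6 receptors was -0.20, beside -0.0071 over all genes tested.

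In the 4 other classes tested (jugular-like neurons, satellite glia, Schwann and mural cells) no receptor was called by side. Unnamed neurons were not tested on their own. In jugular-like neurons edgeR and DESeq2 called 0 of the 6 receptors, as edgeR did 0% of 7941 genes. With edgeR 154 of these genes had an unadjusted p under 0.05, and of the receptors Ntrk3 alone did, in both tools. Left pools averaged 141 ± 19.6 CPM and right pools 213 ± 59.8 (SD, n = 6 per side), for a log2 ratio of 0.64 (SE 0.17, edgeR adjusted p = 1.00). In the Tafa1, Ccdc172 and Mdfic2 subcluster Ntrk3 was 242 ± 47.0 CPM in 5 left pools and 426 ± 110 in 5 right pools, and these ranges overlapped. In mural cells left pools averaged 517 ± 145 CPM of Ntrk3 and right pools 353 ± 110 (SD, n = 6 per side). The log2 ratio was -0.65 (SE 0.17, edgeR adjusted p = 0.118), in a class where 0.0576% of 3474 genes were called. Ntrk3 was called there in 3 of 20 alternatives, which were without ML1 (edgeR adjusted p = 0.0477), MR3 (0.0285) or FL2 (0.0258). It was not called without ML1 and FL1 (-0.62, edgeR adjusted p = 0.384). When single pools were left out, the edgeR adjusted p reached 0.533. In Schwann cells, with 0.128% of genes called, Ntrk3 averaged 439 ± 64.7 CPM in left and 375 ± 36.5 in right pools, for a log2 ratio of -0.25 (SE 0.097, edgeR adjusted p = 0.560). In both classes Ntrk3 was the only receptor with an unadjusted p under 0.05 with either tool. With edgeR 325 of 3474 genes reached this in mural cells and 494 of 7027 in Schwann cells. In satellite glia edgeR called 0% of 10264 genes, and neither tool gave a receptor an unadjusted p under 0.05, which edgeR gave 505 genes.

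By labelled sex no receptor was called in these 4 classes, in neurons or in nodose-like neurons, with all pools or without ML1 and FL1. In neurons edgeR called 0.241% of 14100 genes and gave 2408 of them an unadjusted p under 0.05. Of the 6 receptors, 1 had such a p with edgeR and 0 with DESeq2. This was Ntrk3. Male-labelled pools averaged 112 ± 10.7 CPM and female-labelled ones 101 ± 13.3 (SD, n = 6 per label), for a log2 ratio of female to male of -0.15 (SE 0.070, edgeR adjusted p = 0.289), and of -0.11 (0.546) without ML1 and FL1. Nodose-like neurons (0.448% of genes called) gave 0 receptors with edgeR and 1 (Ret) with DESeq2 at an unadjusted p under 0.05. With edgeR 1477 of 12064 genes were at such a p there. Jugular-like neurons (0% called) and satellite glia (0.00974% called) gave no receptor by either tool, beside 694 of 7941 and 777 of 10264 genes with edgeR. In Schwann cells (0% called) Gfra2 alone of the receptors had an unadjusted p under 0.05 with both tools, beside 349 of 7027 genes with edgeR. Male-labelled pools averaged 152 ± 25.6 CPM and female-labelled ones 189 ± 23.5, for a log2 ratio of 0.32 (SE 0.12, edgeR adjusted p = 0.958), and of 0.26 (0.769) without ML1 and FL1. In mural cells (0% called) this held for Ngfr, beside 199 of 3474 genes with edgeR. The interaction of side and labelled sex in neurons called 0 of the 6 receptors with edgeR and DESeq2, with 0 at an unadjusted p under 0.05 in either. With edgeR it called 0% of 14100 genes and gave 575 of them an unadjusted p under 0.05. For Gfra2 the interaction was -0.10 ± 0.15 (SE) on the log2 scale.

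Beside the receptors, 51 further genes of their pathways were listed, of which 49 had a row, and 42 of these were tested in neurons. Among the ligands, Ntf3, which encodes NT-3, was at 141 ± 49.2 CPM in mural cells and 2.91 ± 0.706 in neurons (SD, n = 12 pools). Bdnf was at 45.2 ± 3.98 CPM in neurons, 25.4 ± 4.74 in satellite glia and 15.5 ± 5.91 in Schwann cells. Gdnf was at 2.21 ± 0.412 CPM in neurons, and over all neurons Artn had 48 UMIs, Nrtn 4 and Ntf4 2. Of 9 other receptors and co-receptors tested by side in neurons, 1 rose on the right, beside 0.163% of all genes called. This was Sorcs1, which encodes a sorting receptor of the sortilin family, from 199 ± 22.0 to 258 ± 25.4 CPM (SD, n = 6 per side), with a log2 ratio of 0.38 (edgeR adjusted p = 0.00629). Its call was lost without ML1 and FL1 (0.36, edgeR adjusted p = 0.0860). None of 4 ligands, 18 adaptors and 11 regulators and targets was called by side in neurons. In nodose-like neurons 4 of 37 were called, beside 2.12% of all genes. Sorcs1 (0.45, edgeR adjusted p = 7.4e-06) and the adaptor gene Dok6 (0.29, 0.00133) rose on the right, and the receptor phosphatase genes Ptprf (-0.27, 0.0124) and Ptprs (-0.22, 0.0127) fell. Without ML1 and FL1 the calls of Ptprf (-0.23, edgeR adjusted p = 0.111) and Ptprs (-0.21, 0.111) were lost. By labelled sex 1 of the 42 was called in neurons, beside 0.241% of all genes: Sorcs2, with 57.3 ± 6.38 CPM under the male and 43.8 ± 4.66 under the female label (log2 ratio -0.38, edgeR adjusted p = 0.0482, and -0.42, 0.0378 without ML1 and FL1). Ptprf in nodose-like neurons was called by sex only without these pools (-0.28, edgeR adjusted p = 0.0236, against -0.22, 0.105). In the 4 other classes tested none was called by side or sex.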

How the data were processed

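The authors fixed and barcoded nuclei with Evercode version 2 kits and sequenced 8 sublibraries, per the labels. The deposited matrix holds raw counts (UMIs) per nucleus and gene, and pool names come from the deposited nucleus table. Per the submitters' processing notes the build was mRatBN7.2 and the tools included R 4.3.2 and Seurat 4.1.3, with no role given. The aligner is not given in the sources used here.

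Nuclei had to hold 300 genes or more and no more than 5% mitochondrial UMIs (36740 passed), and Scrublet in scanpy 1.11.5 called 2 doublets (0.00544%), so it hardly worked. Clusters were drawn with leidenalg 0.10.2 (3000 variable genes, 30 components, 20 neighbours, resolution 1), neurons and other nuclei then separately on Pearson residuals of 2000 genes. They were named from 19 marker lists (at least 3 markers, 2-fold, or 1.5-fold for neuron types). UMIs were summed per pool where each pool held 20 or more nuclei of the class. Tests used edgeR 4.0.16 under R 4.3.3 (quasi-likelihood, TMM, filterByExpr, side and sex as terms, adjusted p under 0.05), with DESeq2 1.42.0 as an alternative. In data simulated for side in neurons (13993 genes), 72% of changes of 0.5 and 94% of changes of 1 (log2) were recovered, with 10 false calls.

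The genes, the pathway lists and the marker lists were chosen with earlier results of these data known. Named genes were all 7 receptors, the listed pathway genes, and the 3 genes with the highest likeness to each receptor at 20 CPM or more in a subcluster. Gfra1, Gas1 and Bex3 had no row by symbol. Each pool mixes 6 rats, so p-values measure the spread between pools and not between single rats. The numbers of rats in the labels imply, but do not state, that left and right pools of a sex share rats. The main fit had side and sex as terms and treated the pools as independent. Its p-values for side therefore do not account for such sharing. Results on a few further genes are not reported here.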

Additional observations from a re-analysis of the deposited data

Results flagged for a closer look

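In 9 of 120 groups of 6 pools, the highest or lowest pool stood apart from the other 5 by Dixon's criterion at 95%, where chance flags about 1 in 20 groups. All values are CPM scaled to normalised library sizes. In neurons, Gfra2 was at 74.1 in MR2, whereas the other right pools had 57.0 to 62.1, and Ntrk2 was at 924 in FL2, against 1083 to 1141 in the rest of the female-labelled pools. In jugular-like neurons, FL1 stood apart for both Gfra3 (43.1, against 131 to 172 in the other female-labelled pools) and Ntrk2 (374, against 189 to 258 in the other left pools). In myelinating Schwann cells, Gfra2 was at 111 in MR1 (160 to 187 in the other right pools), and Ntrk3 was at 564 in ML3, apart from the other left pools (381 to 438) and from the other male-labelled pools (344 to 427). In satellite glia, Gfra2 was at 62.1 in FL2 (39.7 to 46.8 in the other left pools) and Ngfr at 472 in FR1 (647 to 740 in the other female-labelled pools).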

How the results depend on the processing

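The number of receptors called by side in neurons was 1 (Gfra2) and was 0 with the receptors left out of clustering, at resolution 2, without ML1 and FL1, without the 5% of nuclei with the highest doublet scores, and in a fit with the replicate block (adjusted p = 0.0610), and 0 to 1 when each pool was left out. Gfra2 kept its direction over 22 alternatives and was called in 8, with edgeR or DESeq2 adjusted p from 0.00200 to 0.299. In nodose-like neurons the count of 1 became 2 (Gfra2 and Ret) with DESeq2, with no filter on low counts, at resolution 2, without the 5% highest doublet scores and in the fit with the replicate block, 0 at resolution 0.5, and 1 to 2 when each pool was left out. Correlations between left and right pools of the same number ran from -0.14 to 0.28, and those of different numbers from -0.25 to 0.25. With 3 pools per sex and side, and ML1 and FL1 against their labelled sex, these values cannot show whether pool numbers pair the samples. In jugular-like neurons 1 receptor (Ntrk3) was called with no filter, and in mural cells 0 to 1 when each pool was left out. Mural cells could not be tested at resolution 2 or with the receptors left out of clustering, where a pool held 6 nuclei. Leaving out each pool gave log2 ratios in neurons, none called, of -0.66 to 0.16 for Gfra3 by sex (above 0 without ML1, and 0.34 without ML1 and FL1), -0.76 to 0.014 for Gfra3 by side (above 0 without ML1) and -0.060 to 0.029 for Ntrk2 by sex (above 0 without ML2, ML3, MR3 or FL2). Satellite glia levels moved to 1013 CPM for Ntrk2, 97.2 for Ntrk3 and 749 for Ngfr at resolution 0.5, and to 955 for Ntrk2 with the receptors left out of clustering. Unthinned shares of neurons were 81.6% for Ntrk2, 16.6% for Ntrk3, 63.4% for Ngfr, 42.5% for Ret, 17.5% for Gfra2 and 3.04% for Gfra3. The cause of these changes was not tested.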

Other observations

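Outside the named classes, 370 nuclei led by Ddc, Dcc and Slc6a2, genes of catecholamine synthesis and uptake and of axon guidance, were left unnamed and carried markers of sympathetic neurons or chromaffin-type cells (Th, Ddc and Chga) as well as of satellite glia, non-myelinating Schwann cells and fibroblasts. They held 835 CPM of Ntrk2, 82.1 of Ntrk3, 401 of Ngfr, 221 of Ret, 70.8 of Gfra2 and 2.26 of Gfra3 in their summed UMIs. A further 765 nuclei led by Tyrp1, Apoe and Kctd12 carried markers of satellite glia, Schwann cells, fibroblasts and mural cells, with Th and Chga, and held 102 CPM of Gfra2. These values stand outside every comparison.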
